A study of Rattus norvegicus with 13 samples.

Results

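The genes described here make sterols and fatty acids, or control that synthesis. They were chosen by name, as a list of 33 genes, and 32 of them had a probe set that names a single gene, among 14217 genes measured; the enzyme gene Hmgcs1 had none and is not analysed here. Where several probe sets named a gene, the one brightest on average over the 13 arrays stood for it. All 32 were kept, with no filter on low values. They were measured in a rat model of cholangiocarcinoma, a cancer of the bile ducts.

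The 4 tumours (young adult male Fischer 344 rats) arose in the liver from BDEsp cells, a transformed line of rat bile duct epithelial cells, and were snap-frozen. From such tumours came a line of cholangiocarcinoma cells (clone H10, here the epithelial line) and one of cancer-associated fibroblasts that carry alpha smooth muscle actin (clone E4, here the fibroblastic line). Each line is 1 clone, and both were cultured inside a gel of type I collagen from rat tail. The fibroblast density used for the co-culture arrays is not stated in the labels. The groups were tumours (4 arrays), epithelial cells labelled as in co-culture with the fibroblastic line (1 array), fibroblastic cells labelled as in co-culture with the epithelial line (1 array), the epithelial line alone (3 arrays) and the fibroblastic line alone (4 arrays). No source used here says whether replicate cultures were independent, so p-values measure the spread between these arrays, which may be technical. Levels are log2 values from the authors' RMA (robust multi-array average) processing, on which a step of 1 is a 2-fold change. Arrays have no counting depth, so their number limits the precision, and levels of different genes are not compared.

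Cholesterol is built from acetyl-CoA through mevalonate, isoprenoid units, squalene and lanosterol, and fatty acids are built from the same precursor and then elongated and desaturated. Both routes are driven by the transcription factors SREBP2 (Srebf2) and SREBP1 (Srebf1), which the escort protein SCAP carries from the endoplasmic reticulum to the Golgi when sterols are scarce. INSIG proteins hold SCAP back when sterols are plentiful, so the enzymes of the route tend to be regulated together. The liver is a main site of both syntheses.

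The promoters of these genes are shown because many members differed together between groups. RefSeq (GRCr8) gave promoter sequence for 25 of the 32 members, 26 promoters in all because Srebf1 has 2, and the 250 bases before each start were searched on both strands. CCAAT, the motif of the factor NF-Y, was in 19 of 26, or 73.1%, against 34.6% of the 13243 promoters of genes on the array and 34.0% of all 33469. GGGCGG, the motif of Sp1, was in 21 of 26, or 80.8%, against 52.3% and 30.5%. TCACNCCAC, a core of the sterol regulatory element, was in 0 of 26, against 1.0% and 1.0%; these letters are not in these windows, which says nothing of the factor. Among the members, CCAAT and GGGCGG matches overlapped in 0 cases. Acat2, Cyp51, Dhcr7, Fads2, Me1, Scap and Scd had no CCAAT match. Of these, Acat2, Cyp51 and Dhcr7 were higher in the epithelial than in the fibroblastic line (log2 differences 2.26, 2.12 and 2.64), and the others were not called. Hsd17b7, Elovl5, Fads1, Insig2 and Lss, also not called there (0.34, 0.25, 0.67, -0.048 and 0.82), had 3, 2, 1, 1 and 1 matches. The promoters of 3 members follow, each 5′ to 3′ on the strand of the gene, with CCAAT and its reverse complement ATTGG in capitals. Idi1 differed most between the lines, Mvk shares with Nsdhl the highest number of matches among these promoters (5), and Scd, the member furthest above both lines in the tumours, has none. They lie at chr17:66547525-66547774 (Idi1, minus strand), chr12:47819504-47819753 (Mvk, minus strand) and chr1:253231732-253231981 (Scd, minus strand).
Idi1: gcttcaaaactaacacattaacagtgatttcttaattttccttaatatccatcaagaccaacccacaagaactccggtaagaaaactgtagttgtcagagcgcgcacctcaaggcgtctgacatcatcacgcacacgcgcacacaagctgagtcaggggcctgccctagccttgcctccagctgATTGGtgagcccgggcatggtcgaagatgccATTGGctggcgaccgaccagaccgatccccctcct
Mvk: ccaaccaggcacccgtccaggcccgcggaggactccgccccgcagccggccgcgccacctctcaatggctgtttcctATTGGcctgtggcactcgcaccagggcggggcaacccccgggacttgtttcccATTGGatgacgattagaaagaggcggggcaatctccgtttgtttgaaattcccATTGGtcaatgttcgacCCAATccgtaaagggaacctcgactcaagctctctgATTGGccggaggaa
Scd: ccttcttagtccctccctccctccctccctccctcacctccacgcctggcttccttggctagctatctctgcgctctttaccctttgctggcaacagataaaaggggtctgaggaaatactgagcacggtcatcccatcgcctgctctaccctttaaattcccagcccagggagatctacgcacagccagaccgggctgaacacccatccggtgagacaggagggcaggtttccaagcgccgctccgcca

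Some arrays stood apart from their labels or from their group. Both co-culture arrays held the markers of both lines. The mean of 9 biliary epithelial markers was 11.59 in the epithelial and 11.48 in the fibroblastic co-culture array, against 12.05 to 12.54 in the epithelial and 4.47 to 5.15 in the fibroblastic line alone. The mean of 12 fibroblast markers was 9.96 and 10.21 in the same co-culture arrays, against 5.24 to 5.34 in the epithelial and 11.44 to 11.66 in the fibroblastic line. The array labelled as fibroblastic cells from co-culture therefore goes against its label in its epithelial markers, and each co-culture array is set beside both lines. The mean of 17 hepatocyte markers was 12.73, 11.16 and 12.94 in tumours 1, 3 and 4 but 5.82 in tumour 2, against 4.75 to 5.25 on all cultured arrays. The actin measure of RNA quality, the log2 difference between 3′ and 5′ probe sets, ranged over 0.606 to 0.752 on tumour arrays and 0.856 to 1.469 on epithelial arrays, and was 1.716, 2.648, 1.045 and 2.007 in fibroblastic arrays 1 to 4. The hexokinase measure ran the other way between tissue and cultures, at 1.546 to 1.829 on tumour, 0.908 to 1.163 on epithelial and 1.117 to 1.399 on fibroblastic arrays.

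**Figure D1:**
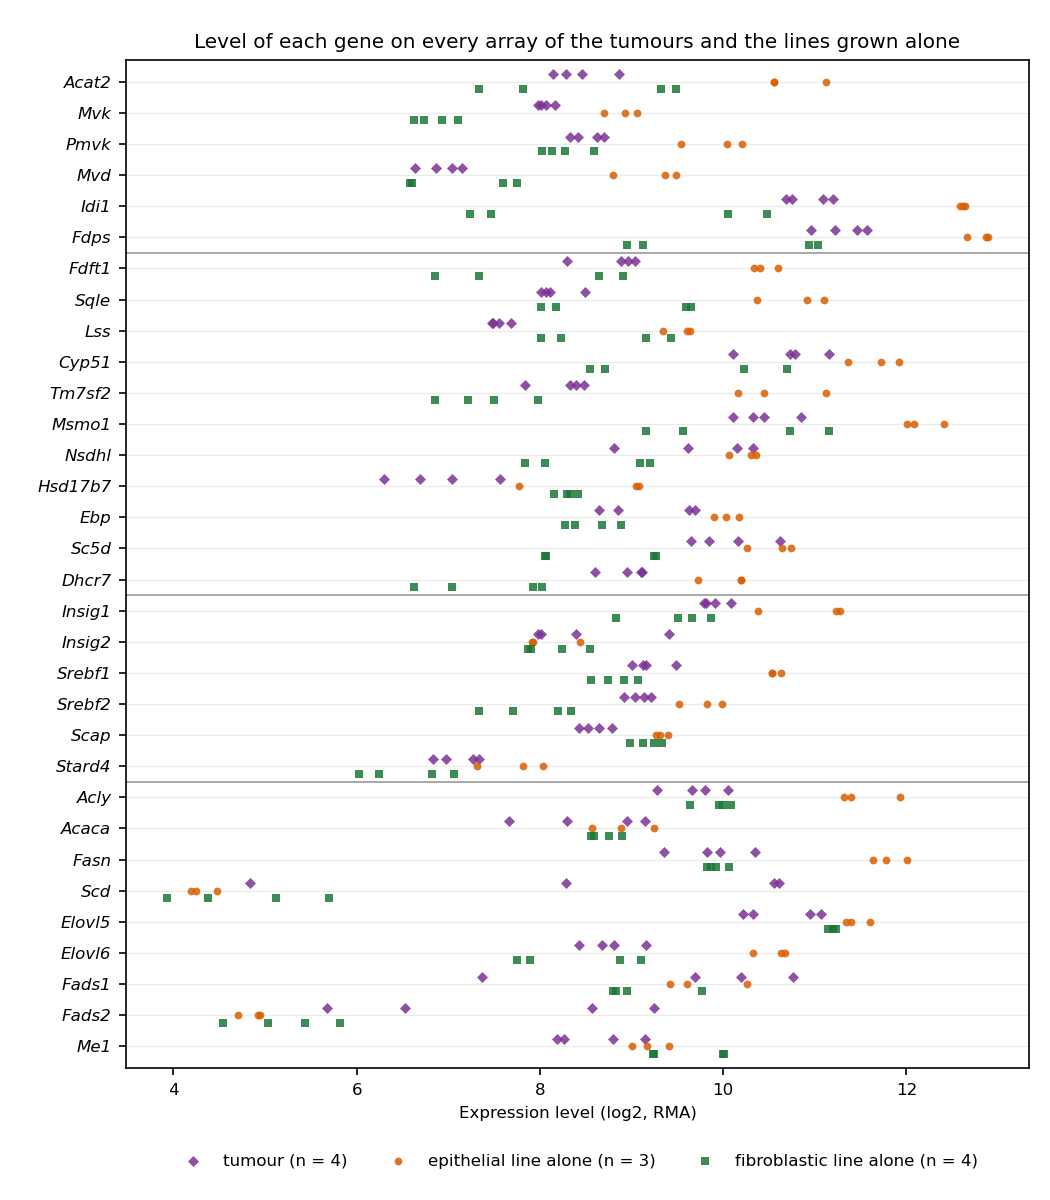
Level of each of the 32 genes (x axis, log2 RMA) on every array of the tumours (diamonds), the epithelial line alone (circles) and the fibroblastic line alone (squares). Grey lines part the mevalonate steps, the sterol steps, the regulators and the fatty acid genes, from the top down. For Idi1 the 3 epithelial arrays lie at 12.58 to 12.64, above every tumour and every fibroblastic array.

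The lines grown alone were compared first, cancer cells with fibroblastic cells. The epithelial line was higher in 22 of 32 members and lower in 0 (limma, adjusted p under 0.05), while 20.9% of all genes were higher and 16.6% lower. The median log2 difference was 1.71 over the members and 0.11 over all genes. In 23 members every epithelial array lay above every fibroblastic one, as in 26% of all genes. By role, all 6 mevalonate genes, 9 of 11 sterol genes, 4 of 6 regulators and 3 of 9 fatty acid genes were higher. Of 18 cell cycle genes, 10 were higher and 0 lower in the same comparison (median 1.57). Their part in the member differences was not tested.

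Idi1, the isomerase that makes the allylic isoprenoid unit, stood at 12.58, 12.62 and 12.64 in the epithelial line, against 10.48, 7.24, 10.05 and 7.47 in the fibroblastic line. Every epithelial array was above every fibroblastic one, and fibroblastic arrays 2 and 4 were far below arrays 1 and 3. The log2 difference was 3.80 (SE 0.80, limma adjusted p = 0.00707), or 13.9-fold. Fdps, which makes farnesyl diphosphate, averaged 12.81 ± 0.13 (SD, n = 3) in epithelial arrays against 10.01 ± 1.13 (SD, n = 4) in fibroblastic arrays (difference 2.80, SE 0.55). Mvk, mevalonate kinase, differed with little spread, at 8.70, 9.06 and 8.93 against 6.93, 6.62, 7.11 and 6.73 in the fibroblastic line (difference 2.05, SE 0.17, limma adjusted p = 4.47e-05). Acat2, the cytosolic thiolase at the head of the route, differed by 2.26, and the decarboxylase Mvd by 2.08. Pmvk, which phosphorylates phosphomevalonate, differed by 1.68. In all 6 mevalonate genes the groups did not overlap.

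Among the sterol enzymes the largest difference was in Tm7sf2, a sterol 14-reductase. It was at 10.16, 10.45 and 11.12 in the epithelial line, against 7.98, 6.86, 7.50 and 7.21 in the fibroblastic line. The groups lay apart (difference 3.19, SE 0.32, limma adjusted p = 0.000130). Dhcr7, which makes cholesterol or its late precursor, differed by 2.64, and Fdft1, squalene synthase, by 2.51. The lanosterol demethylase Cyp51 differed by 2.12 (adjusted p = 0.0153) but was no longer called once epithelial array 2 or 3 was left out (up to 0.0547). The methyl sterol oxidase Msmo1 differed by 2.01 and the late desaturase Sc5d by 1.88. Nsdhl, which helps remove the methyl groups at carbon 4 of sterols, differed by 1.69 and the isomerase Ebp by 1.48.

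Sqle, squalene epoxidase and a rate-controlling step, was at 10.37, 10.91 and 11.10 in the epithelial line, against 9.65, 8.18, 9.59 and 8.01 in the fibroblastic line, and differed by 1.94 (SE 0.46, limma adjusted p = 0.0116). Its groups did not overlap either. Lss, the cyclase that makes lanosterol, and Hsd17b7, a sterol ketone reductase, were the 2 sterol genes not called (0.82 and 0.34). The other probe set of Hsd17b7, nearly as bright (mean 7.62 against 7.72), differed by 1.32.

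The regulators split. Srebf2 stood at 9.52, 9.82 and 9.99 in the epithelial line, against 8.34, 7.34, 8.20 and 7.71 in the fibroblastic line (difference 1.88, SE 0.26, limma adjusted p = 0.000891). Srebf1 stood at 10.53, 10.53 and 10.63 against 8.56, 9.07, 8.74 and 8.92 in the fibroblastic line (difference 1.74, SE 0.16). Both factor genes were higher on every epithelial array. Insig1, itself a target of SREBP, was higher by 1.49 (SE 0.31), while Insig2 (-0.048, adjusted p = 0.886) and Scap (0.15, adjusted p = 0.435) were not called. Stard4, a cytosolic sterol carrier, was higher by 1.18, but without fibroblastic arrays 2 and 4 it was not called (adjusted p = 0.0548). The direction of Insig2 turned, still without a call, when epithelial array 1 or 3 or fibroblastic array 1 was left out.

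Of the fatty acid genes, Fasn, fatty acid synthase, was at 12.01, 11.64 and 11.78 in the epithelial line, against 9.87, 9.92, 10.06 and 9.82 in the fibroblastic line (difference 1.89, SE 0.15, limma adjusted p = 3.08e-05). Its arrays agreed closely within each line. The elongase Elovl6 differed by 2.14, and Acly, which makes cytosolic acetyl-CoA from citrate, was the other gene called (1.63). The elongase Elovl5 and the desaturases Fads1 and Fads2, with differences of 0.25, 0.67 and -0.35, and Me1 (-0.42) were not called. Acaca, which makes malonyl-CoA, at 0.20, was not called (adjusted p = 0.439), nor was the desaturase gene Scd (-0.48, adjusted p = 0.376). Scd ranged over 4.19 to 4.47 on epithelial and 3.93 to 5.70 on fibroblastic arrays, low on arrays whose 25th percentile of gene levels was 5.20 to 5.83. Its paralogue Scd2, named after its values were seen, was at 12.84, 12.88 and 13.21 in the epithelial line, against 10.17, 10.98, 11.05 and 10.89 in the fibroblastic line.

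**Figure D2:**
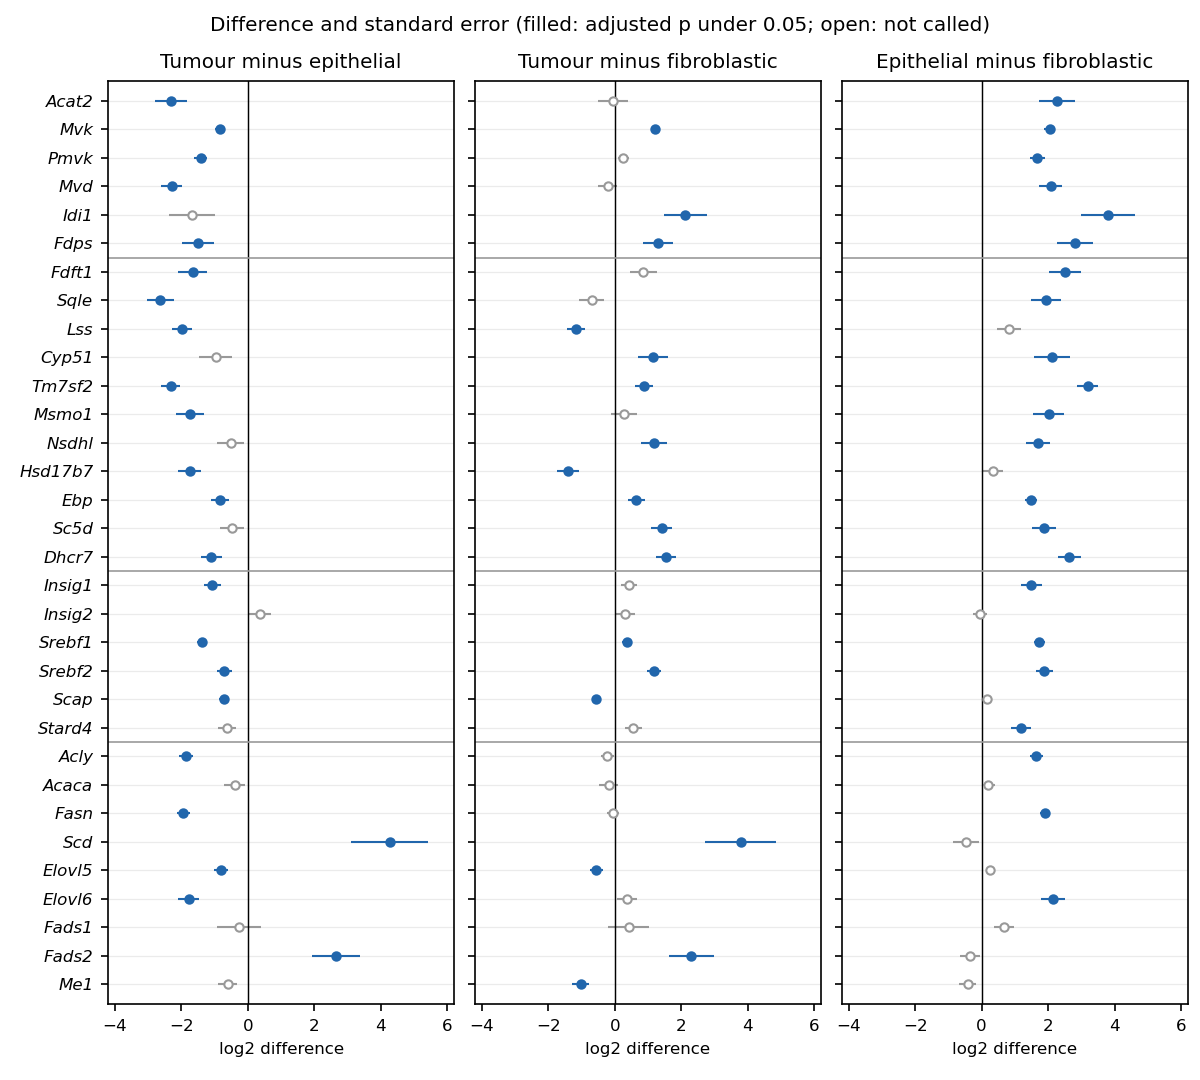
Log2 difference (x axis) with its standard error for each gene, in tumours minus the epithelial line, tumours minus the fibroblastic line, and the epithelial minus the fibroblastic line. Filled points were called at adjusted p under 0.05; in the right panel 22 are filled, all above 0, and in the left panel 21 of the 23 filled points are below 0.

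The fibroblastic arrays differed among themselves more in the sterol route than in fatty acid synthesis. The median SD over these 4 arrays was 0.85 for mevalonate genes and 0.69 for sterol genes, against 0.39 for regulators, 0.44 for fatty acid genes and 0.24 over all genes. The same medians in the epithelial line were 0.25, 0.26, 0.27, 0.19 and 0.23. Arrays 2 and 4 were the lowest in 26 of 32 members, while this held for 32.5% of all genes. In 9 members both were at least 2-fold below arrays 1 and 3, as were 2.17% of all genes. These 9 were Acat2, Idi1, Fdps, Fdft1, Sqle, Cyp51, Msmo1, Nsdhl and Sc5d, none of them a fatty acid gene. The order itself was not limited to the sterol route. Arrays 2 and 4 were the lowest in 6 of 6 mevalonate, 10 of 11 sterol and 6 of 9 fatty acid genes, and in 4 of 6 regulators.

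Msmo1 was at 11.15, 9.16, 10.73 and 9.56 in fibroblastic arrays 1 to 4. Srebf2 followed the same order of pairs (8.34, 7.34, 8.20 and 7.71), and Srebf1 the opposite one (8.56, 9.07, 8.74 and 8.92). Of the fatty acid genes the narrowest were Elovl5, which spanned 0.09, from 11.14 to 11.23, and Fasn, which spanned 0.24, from 9.82 to 10.06. Elovl6 was at 9.10, 7.75, 8.87 and 7.89 (SD 0.68), with arrays 2 and 4 lowest. Abcg1, a sterol efflux pump, was at 6.61, 7.28, 5.47 and 7.70, highest on the 2 arrays where the sterol genes were lowest. In 27.3% of all genes arrays 1 and 3 were likewise both below arrays 2 and 4. Scarb1, another gene of sterol transport, had the opposite order (6.76, 5.79, 6.08 and 5.54). Arrays 2 and 4 also had the highest actin measure (2.648 and 2.007). The GAPDH measure was 0.151, 0.27, -0.038 and 0.146 over arrays 1 to 4. Like actin it was highest on array 2 and lowest on array 3, but arrays 1 and 4 were about level. The hexokinase measure did not follow this order (1.237, 1.117, 1.271 and 1.399). In the same arrays, the mean of 18 cell cycle genes was 8.35, 7.39, 9.73 and 8.22 over arrays 1 to 4. The part of any of these in this spread was not tested.

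Without fibroblastic arrays 2 and 4, the epithelial line was called above the fibroblastic one in 21 of 32 members and below it in 3. Of all 14217 genes, 4650 were called in either direction. Of the differences above, Idi1 was then 2.35, Acat2 1.34, Fdps 1.82, Fdft1 1.67, Cyp51 1.20, Msmo1 1.22, Sqle 1.17, Sc5d 1.29, and Tm7sf2 2.84. Fasn (1.85) and Srebf1 (1.91) stayed near their values over all arrays. The 3 lower genes, named after their values were seen, were Scd (-1.11), the desaturase Fads2 (-0.78) and Me1 (-0.80), the malic enzyme that supplies NADPH. On epithelial arrays Scd and Fads2 (4.70 to 4.94) lay below the 25th percentile of gene levels, where the size of a log2 difference says little.

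**Figure D3:**
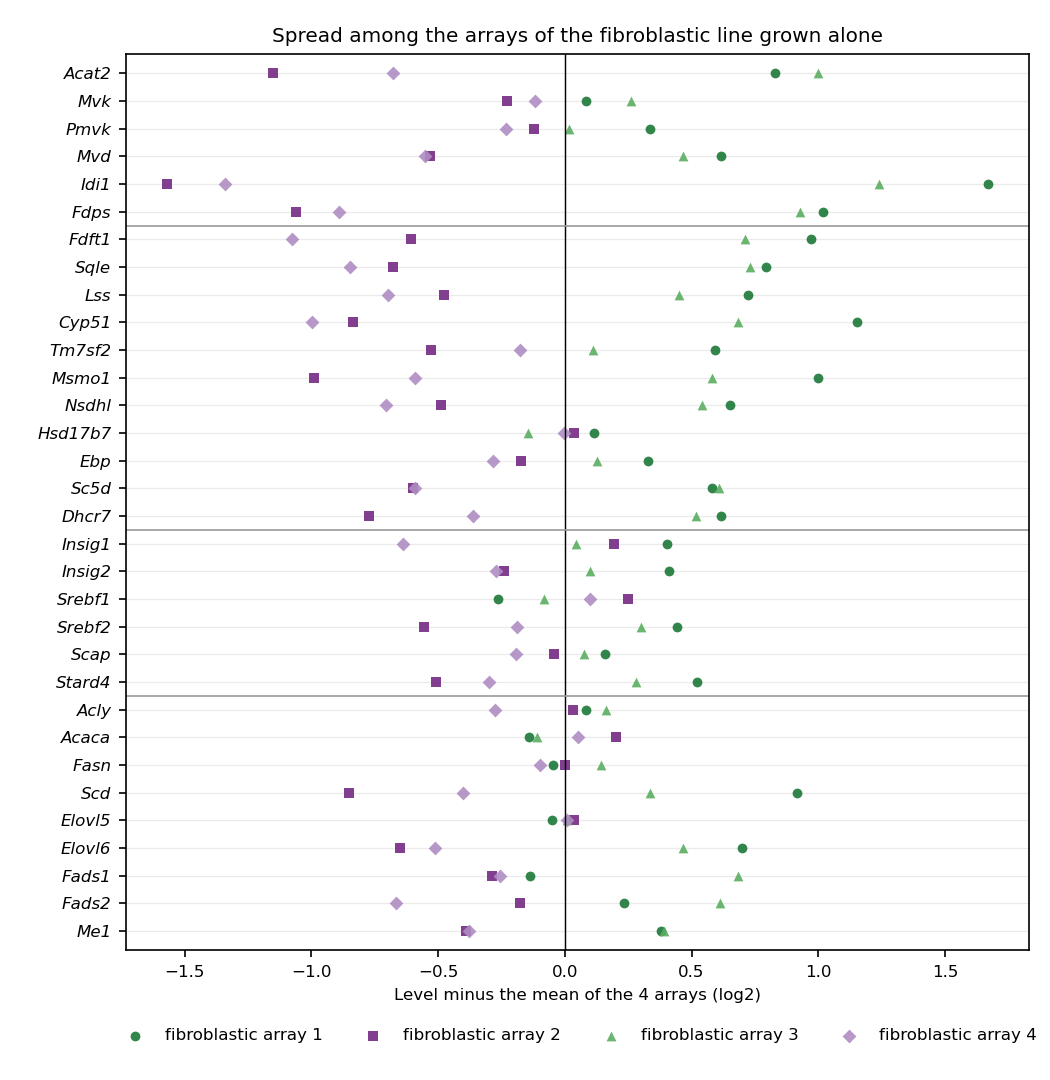
Level of each gene on the 4 arrays of the fibroblastic line, less their mean (x axis, log2; circles, squares, triangles and diamonds for arrays 1 to 4). Arrays 2 and 4 lie left of arrays 1 and 3 for most mevalonate and sterol genes, while the 4 points of Fasn and Elovl5 lie close together.

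Tumours were set against the epithelial line, that is, whole tissue against its cancer cells as grown in culture. In bulk tissue, fewer cells of a type and less RNA per cell cannot be told apart. The tumours were lower in 21 of 32 members and higher in 2, with 33.2% of all genes lower and 18.9% higher. The median was -1.08 over the members and -0.17 over all genes. With arrays centred on their medians, all genes shifted to a median of 0.03, and 19 members were lower and 2 higher. By role, 5 of 6 mevalonate genes, 8 of 11 sterol genes, 4 of 6 regulators and 4 of 9 fatty acid genes were lower.

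Sqle was lowest relative to the line, at 8.07, 8.01, 8.49 and 8.11 in the tumours, against 10.37, 10.91 and 11.10 in the epithelial line. The groups lay well apart (difference -2.62, SE 0.40, limma adjusted p = 0.000446). Mvd stood at 6.64, 6.87, 7.15 and 7.04 against 8.80, 9.36 and 9.48 in the epithelial line (difference -2.29, SE 0.31). Tm7sf2 (-2.32), Acat2 (-2.31), Lss (-1.98), Hsd17b7 (-1.74), Msmo1 (-1.73), Fdft1 (-1.65) and Pmvk (-1.41) were also lower. Smaller differences were called for Dhcr7 (-1.10), Mvk (-0.84) and Ebp (-0.83), and none for Cyp51 (-0.97), Nsdhl (-0.51) and Sc5d (-0.48). Some sizes depended on the probe set. On the other probe sets the difference was -0.19 and -0.17 for Mvk and -0.81 for Lss. It was -0.76 and -1.18 for Sc5d and -2.78 for Hsd17b7. Fdps was lower by a log2 difference of -1.50 (adjusted p = 0.0235) but was not called once tumour 1, tumour 2 or any epithelial array was left out (up to 0.0614). Idi1, at -1.68, was not called (adjusted p = 0.0653), although every tumour (10.69 to 11.20) lay below every epithelial array; the fit pools the spread over groups, and the fibroblastic arrays spread widely (8.81 ± 1.69, SD, n = 4).

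Srebf1 was at 9.13, 9.01, 9.16 and 9.48 in the tumours, against 10.53, 10.53 and 10.63 in the epithelial line (difference -1.36, SE 0.15, limma adjusted p = 6.29e-05). No tumour reached an epithelial array. Insig1 was lower (-1.06; adjusted p = 0.0561 without tumours 1 and 4), as was Scap (-0.73, not called after a further quantile normalization, adjusted p = 0.0502). The call of Srebf2 (-0.70, adjusted p = 0.0244) ended without tumour 1 or 4 or epithelial array 2 or 3 (up to 0.0845) and under both other scalings (up to 0.293). Insig2, at 0.36, was not called (adjusted p = 0.382), except with probe sets averaged (0.85, adjusted p = 0.0431).

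The fatty acid genes went both ways. Fasn was at 9.82, 9.35, 10.35 and 9.96 in the tumours, against 12.01, 11.64 and 11.78 in the epithelial line (difference -1.94, SE 0.20). Acly (-1.85) and Elovl6 (-1.78) were lower with it, and their tumours did not overlap the line. Scd stood at 10.61, 4.83, 8.28 and 10.55 in tumours 1 to 4, against 4.19, 4.47 and 4.25 in the epithelial line. Tumour 2 was close to the cultured cells and the other tumours far above them (difference 4.26, SE 1.15, limma adjusted p = 0.0107). Fads2 stood at 8.57, 5.68, 6.53 and 9.24 against 4.94, 4.70 and 4.92 (difference 2.65, SE 0.72, adjusted p = 0.0111). Acaca, at -0.39, was not called (adjusted p = 0.322), except without tumours 1 and 4 (-0.93, adjusted p = 0.0230) or with tumour 2 as the only tumour (-1.25, adjusted p = 0.0270); its second, dimmer probe set had the opposite sign (0.69), as did that of the called gene Elovl5 (1.99 against -0.80).

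Scd was high in the tumours whose hepatocyte markers were high. Fads2 was so in tumours 1 and 4 (8.57 and 9.24), but stood at 6.53 in tumour 3 and 5.68 in tumour 2. Albumin (Alb), the main plasma protein of the liver, was at 14.51, 7.50, 13.94 and 14.46 in tumours 1 to 4. With tumour 2 as the only tumour, the difference from the epithelial line was 0.53 for Scd (adjusted p = 0.586) and 0.83 for Fads2 (adjusted p = 0.238), and neither was called. Without tumours 1 and 4, the difference for Scd was 2.25, not called (adjusted p = 0.0781). The part of hepatocytes in these values was not tested. Other marker lists moved as well. The fibroblast mean was 11.11 to 11.49 in tumours against 5.24 to 5.34 in the epithelial line, with 12 of 12 genes higher. The mean of 10 macrophage genes was 10.53 to 10.85 against 5.54 to 5.90, with all 10 higher, and that of 7 adipocyte genes 7.31 to 7.69 against 4.91 to 6.37, with 6 higher. The biliary mean was 11.39 to 12.02 against 12.05 to 12.54, with 5 of 9 genes lower, and that of 18 cell cycle genes 8.83 to 9.34 against 9.47 to 10.35, with 7 lower. Their part in the lower sterol genes was not tested. For adiponectin (Adipoq), the defining adipocyte product, the tumours stood at 5.74 to 6.19 and the epithelial line at 4.43 to 5.14.

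Tumour 2 was the lowest tumour in 22 of 32 members, with a median of -0.50 relative to the mean of the others, while it was lowest in 21.2% of all genes (median 0.05). It was lowest in all 11 sterol genes and in 8 of 9 fatty acid genes. The gap to the others was -4.98 for Scd, -2.84 for Fads1, a desaturase of long polyunsaturated fatty acids, -2.43 for Fads2, -1.23 for Nsdhl and -1.14 for Acaca. The mevalonate genes and the regulators showed smaller gaps, between -0.46 and 0.14 and between -0.58 and 0.24. With tumour 2 as the only tumour, that tumour was assumed to vary like the other groups. Calls against the epithelial line were then lost for differences of about the same size or larger: Acat2 (-2.60), Fdft1 (-2.16), Msmo1 (-2.06), Fdps (-1.85), Elovl6 (-1.74), Insig1 (-0.88) and Scap (-0.68). In tumour 2, Sqle, Fasn and Srebf1 (8.01, 9.35 and 9.01) lay below the other tumours and Mvd (6.87) among them.

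**Figure D4:**
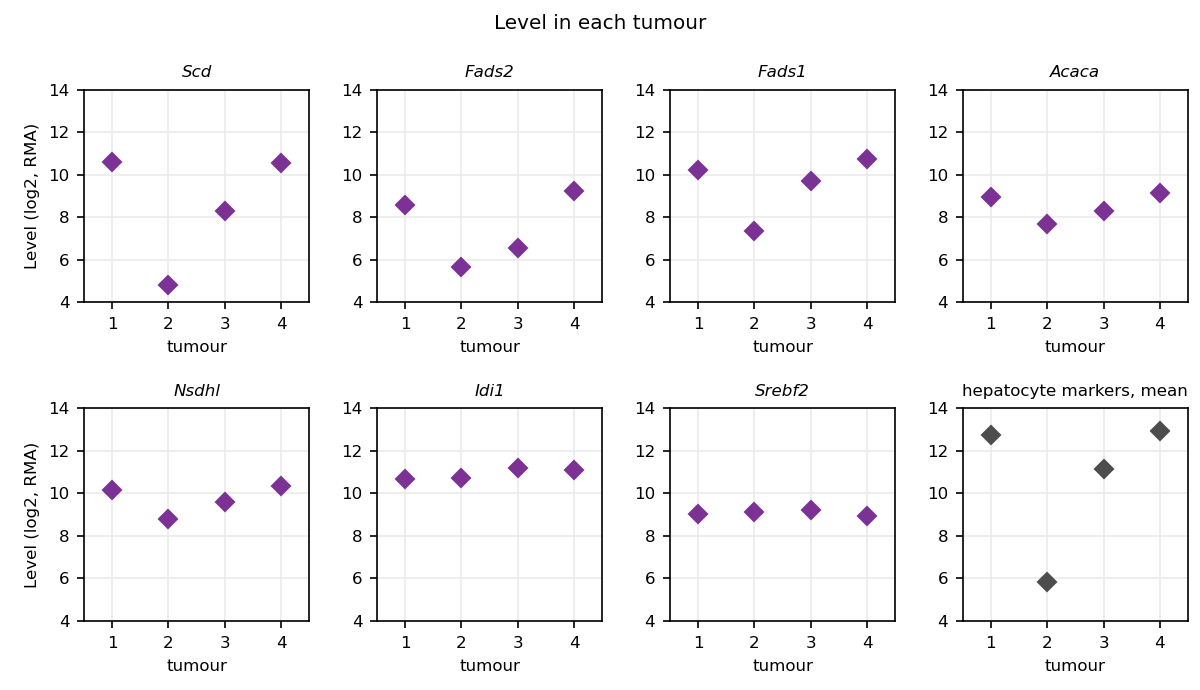
Level (y axis, log2 RMA) in tumours 1 to 4 of 7 members, beside the mean of 17 hepatocyte markers. Scd and Fads2 are lowest in tumour 2, where the hepatocyte mean is 5.82 against 11.16 to 12.94 in the others, while Idi1 spans 10.69 to 11.20 and Srebf2 8.92 to 9.21 over the 4 tumours.

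Against the fibroblastic line, the tumours were higher in 13 members and lower in 5, with 27.3% of all genes higher and 33.5% lower. This comparison shares the tumours with the comparison above. The median was 0.39 over the members and -0.07 over all genes. With arrays centred on their medians, all genes shifted to a median of 0.12, and 16 members were higher and 4 lower. The split changed in several settings. It was 6 higher and 7 lower without fibroblastic arrays 2 and 4, 4 and 6 without tumours 1 and 4, and 4 and 4 at an adjusted p under 0.01. Of all 14217 genes, 7714, 6536 and 6425 were called in these settings, against 8652 with all arrays at 0.05.

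Mvk was at 7.98, 8.01, 8.16 and 8.07 in the tumours, against 6.93, 6.62, 7.11 and 6.73 in the fibroblastic line. The groups did not overlap (difference 1.21, SE 0.13, limma adjusted p = 2.3e-05). Dhcr7 was at 9.11, 8.60, 9.10 and 8.95 against 8.02, 6.63, 7.92 and 7.04 in the fibroblastic line (difference 1.54, SE 0.29), and its groups lay apart too. Every tumour lay above every fibroblastic array in 5 of 32 members, beside 3724 of all 14217 genes. Every tumour lay below in 5 of 32 members, beside 4554 of all genes. Srebf2 was higher by 1.18 (SE 0.21, adjusted p = 0.000701) and Sc5d by 1.41. Idi1 was higher by 2.12 (adjusted p = 0.0157), and by a log2 difference of 2.16 that was not called without tumours 1 and 4 (adjusted p = 0.0698). Without fibroblastic arrays 2 and 4 the differences were smaller and still called, at 0.67 for Idi1, 0.97 for Dhcr7, 0.81 for Sc5d and 0.81 for Srebf2. Tm7sf2 was higher by 0.88 (adjusted p = 0.0166), and by 0.52 without a call (adjusted p = 0.155) without fibroblastic arrays 2 and 4.

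Further calls were less stable. Fdps (1.29), Nsdhl (1.18), Cyp51 (1.15) and Ebp (0.65) were higher, but each lost its call without tumour 1 or 4 or fibroblastic array 2 or 4. Their adjusted p then reached 0.0784 for Fdps, 0.0590 for Nsdhl, 0.131 for Cyp51 and 0.109 for Ebp. Fdps also lost it without tumour 3 (0.0660), Cyp51 without tumour 3 (0.116) or any epithelial array (up to 0.0616), and Ebp without fibroblastic array 3 (0.0506). Srebf1 was higher by 0.37 (adjusted p = 0.0385) and lost its call once tumour 1, 3 or 4 or fibroblastic array 1 or 3 was left out (up to 0.114).

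Lower than the fibroblastic line were Hsd17b7 and Lss. Hsd17b7 was at 7.04, 6.30, 6.69 and 7.56 in the tumours, against 8.41, 8.33, 8.15 and 8.29 in the fibroblastic line (difference -1.40, SE 0.32, limma adjusted p = 0.00336). Lss was at 7.55, 7.48, 7.49 and 7.68 against 9.43, 8.23, 9.16 and 8.01 (difference -1.16, SE 0.28); its other probe set differed by 0.09, and with probe sets averaged it was not called (adjusted p = 0.0573). Neither gene overlapped. Me1 (-1.02) was lower, a call that ended after quantile normalization (adjusted p = 0.0538). Scap (-0.57) was lower too; its dimmer probe set differed by 0.45, and with probe sets averaged it was not called (adjusted p = 0.685). Sqle, at -0.69, was not called (adjusted p = 0.132), except without fibroblastic array 4 (-0.97, adjusted p = 0.0357) or arrays 2 and 4 (-1.45, adjusted p = 0.000638).

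Scd was higher than in the fibroblastic line by 3.78 (SE 1.07, adjusted p = 0.0106) and Fads2 by 2.30 (adjusted p = 0.0124), differences that were 0.046 and 0.48 with tumour 2 as the only tumour (adjusted p = 0.962 and 0.438). Without fibroblastic arrays 2 and 4 neither was called (3.16, adjusted p = 0.0838, and 1.88, adjusted p = 0.0952). Fasn (-0.045), Acaca (-0.19), Insig1 (0.43) and Insig2 (0.31) were not called. Insig1 was called after quantile normalization (0.72, adjusted p = 0.0375), Insig2 with probe sets averaged (0.81, adjusted p = 0.0342) and Acaca without tumours 1 and 4 (-0.72, adjusted p = 0.0353). In 4 members, Lss, Hsd17b7, Scap and Elovl5, every tumour lay below every array of both lines, as did 18.8% of all genes. On their dimmer probe sets the difference from the fibroblastic line was 2.81 for Elovl5, 0.45 for Scap and 0.09 for Lss. For Hsd17b7 it was -1.46. In 0 members did every tumour lie above both lines, against 11.6% of all genes.

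The co-culture arrays ask whether contact between the lines goes with a change. Since both hold markers of both lines, a difference from either line alone includes the other line's cells, and their part cannot be told apart. The epithelial co-culture array was lower than the epithelial line in 4 members and higher in 0, with 2.37% of all genes lower and 4.87% higher. The lone array was assumed to vary like the replicated groups. Fasn was at 10.03 on this array, against 12.01, 11.64 and 11.78 in the epithelial line alone and 9.82 to 10.06 in the fibroblastic line (difference from the epithelial line -1.78, SE 0.22, limma adjusted p = 0.00236). It thus stood within the range of the fibroblastic line.

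Mvk was at 7.46 on the same array, against 8.70 to 9.06 in the epithelial line, a difference of -1.44 (adjusted p = 0.0141). Srebf1 was at 9.34, against 10.53 to 10.63 (-1.22, adjusted p = 0.0212). Both lay between the lines. Me1 was at 7.52, below the epithelial (9.01 to 9.41) and the fibroblastic line (9.23 to 10.01) alike; its difference of -1.68 (adjusted p = 0.0383) was not called without epithelial array 1, 2 or 3 (up to 0.0879). Differences of -1.10 for Sqle, -0.56 for Srebf2, -0.40 for Scap, -0.023 for Insig1, 0.84 for Scd and 1.16 for Insig2 were not called. The difference for Acaca (-1.10, adjusted p = 0.0615) was called when epithelial array 2 was left out (-1.26, adjusted p = 0.0424).

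The fibroblastic co-culture array was lower than the fibroblastic line in 1 member and higher in 0, with 3.63% of all genes lower and 4.78% higher. That member was Me1, at 7.15 on this array, against 9.23 to 10.01 in the fibroblastic line (difference -2.47, SE 0.37, limma adjusted p = 0.00551). Every array of both lines alone was above it. Sqle (0.88), Srebf2 (0.99), Srebf1 (0.13), Insig1 (1.30), Insig2 (1.08), Scap (-0.28), Scd (0.36), Acaca (-0.42) and Fasn (0.0003) were not called.

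The difference of these differences equals the gap between both co-culture arrays less the gap between the lines alone. Both co-culture arrays held both lines and lay 0.12 apart for Mvk, 0.12 for Fasn and 0.39 for Srebf1, so the term largely restates the line differences of 2.05, 1.89 and 1.74 with the sign turned. It cannot show whether the lines responded differently. Its values were -1.93 for Mvk (adjusted p = 0.0130), -1.78 for Fasn (adjusted p = 0.00982) and -1.34 for Srebf1 (adjusted p = 0.0458), the 3 members called, with 3.76% of all genes called in that direction and 4.66% in the other. Srebf1 was not called without any epithelial array or fibroblastic array 1, 3 or 4 (up to 0.0830), nor after quantile normalization (0.0653), median centring (0.0572) or robust moderation with a trend (0.0577).

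The co-culture arrays were also set beside both lines. On both, 28 of 32 members were below every epithelial array, as were 31.2% of all genes. Outside both lines were 5 members below every array (Acaca, Fads1, Hsd17b7, Me1 and Scap, against 8.85% of all genes) and 1 above. That gene was Insig2, at 9.25 on the epithelial and 9.22 on the fibroblastic co-culture array, against 7.91 to 8.44 in the epithelial and 7.87 to 8.55 in the fibroblastic line alone. All genes stood above both lines in 5.8%. Hsd17b7 stood at 6.62 on the fibroblastic co-culture array, against 7.77 to 9.08 in the epithelial and 8.15 to 8.41 in the fibroblastic line. The co-culture arrays differed from each other by a median of 0.22 over the members, from -0.48 for Acaca to 1.25 for Tm7sf2.

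**Figure D5:**
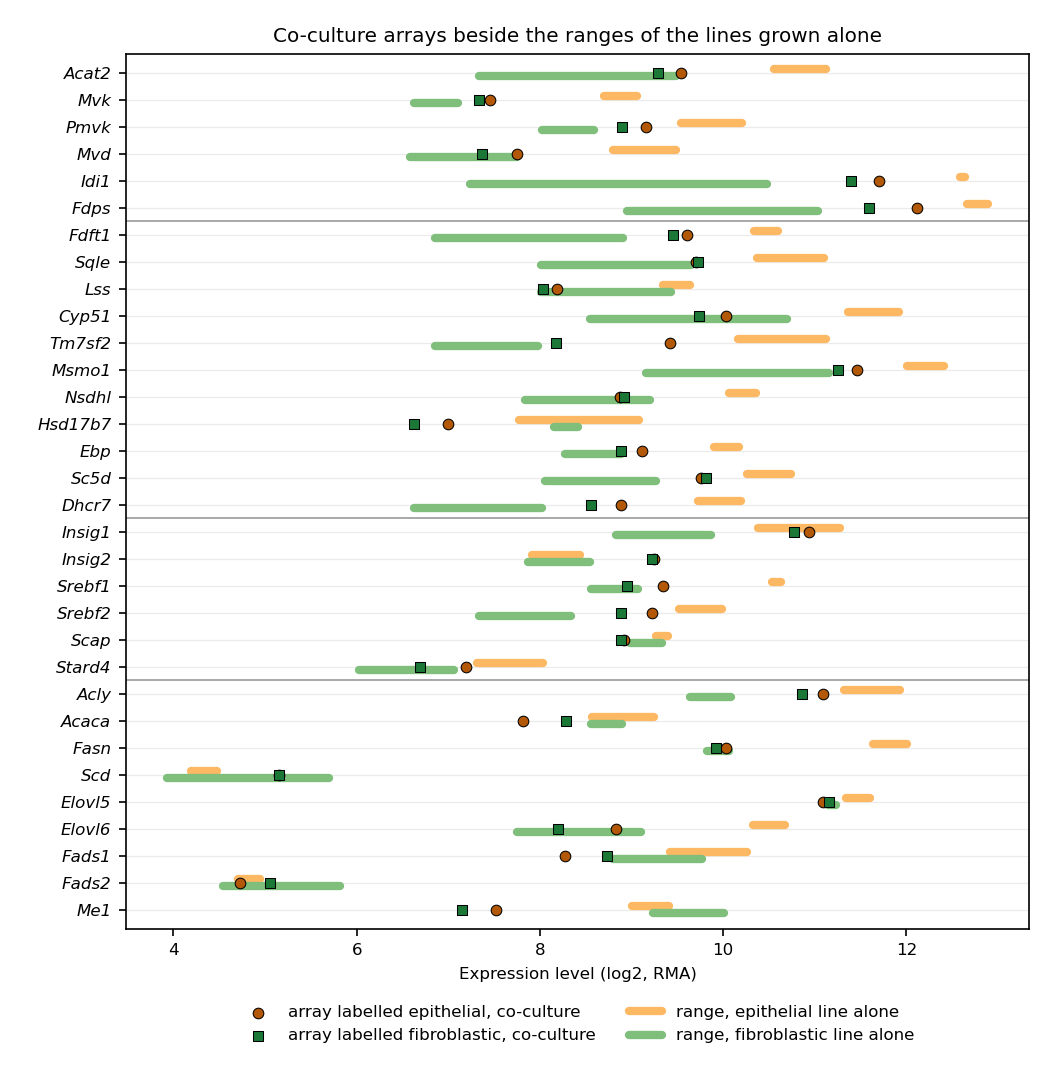
Level (x axis, log2 RMA) of each gene on the array labelled epithelial, co-culture (circles) and on the array labelled fibroblastic, co-culture (squares), with bars for the range of each line grown alone. Me1 and Hsd17b7 lie below both bars on both arrays and Insig2 above both.

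Neighbouring lipid routes were counted on lists chosen with earlier results known. In the epithelial against the fibroblastic line, 9 of 18 genes of acyl-CoA activation and glycerolipid synthesis were higher and 0 lower (median 0.69), beside 20.9% and 16.6% of all genes, led by the triglyceride synthase Dgat2 (2.21), the acyltransferase Agpat2 (1.74) and the citrate carrier Slc25a1 (1.65). Of 13 genes of sterol transport, storage and efflux, 3 were higher and 4 lower (median -0.41), with the lysosomal sterol carrier Npc2 (-1.97), Abcg1 (-1.88) and the lysosomal lipase Lipa (-1.66) lowest. Of 11 genes that lead isoprenoids elsewhere than to sterols, 2 were higher and 1 lower, Coq2 of ubiquinone synthesis (1.50), Pdss2 (0.94) and the prenyltransferase subunit Pggt1b (-1.03). Of 14 genes of fatty acid oxidation, 3 were higher and 1 lower, a share of higher genes near that of all genes, led by the thiolase Acaa2 (-2.84), the carnitine transferase Cpt1a (2.63) and the dehydrogenase Acadl (0.91).

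In tumours against the epithelial line, sterol transport split, with 4 of 13 genes higher and 4 lower, beside 18.9% and 33.2% of all genes. Abcg1 (3.68) and the sterol-sensing receptor gene Nr1h3 (3.00) were the furthest above it, and the sterol-binding protein gene Osbpl5 (-1.88) the furthest below. Abcg1 was at 8.36, 8.72, 8.35 and 8.83 in the tumours, as high in tumour 2 as in the others, against 5.02, 4.69 and 4.94 in the epithelial line. Of the 18 acyl activation and glycerolipid genes 3 were higher and 5 lower, led by the lipogenic regulator Thrsp (3.80), Acsl3 (-1.75) and Acss2 (-1.46), both acyl-CoA synthetases. Thrsp was at 10.85, 5.12, 9.15 and 12.19 in tumours 1 to 4, so tumour 2 stood apart here as for Scd. Of the 11 isoprenoid branch genes 6 were lower and 0 higher, with Coq2 (-1.44), Pdss2 (-1.36) and Nus1 (-0.70) in front. Of the 14 oxidation genes 4 were higher and 0 lower, led by Acaa2 (2.76), the short-chain dehydrogenase Acads (0.55) and Hadha (0.39). Acaa2 was at 10.91, 7.60, 8.89 and 10.82 in tumours 1 to 4, lowest where the hepatocyte markers were lowest. The oxidation mean was 9.57, 8.36, 8.69 and 9.56 in the tumours, against 8.57 to 8.82 in the epithelial line, so tumour 2 lay below the line.

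In tumours against the fibroblastic line, 9 of 18 acyl activation and glycerolipid genes were higher and 1 lower, beside 27.3% and 33.5% of all genes, led by Thrsp (4.07), Dgat2 (1.84) and Agpat2 (1.22). Of the 14 oxidation genes 6 were higher and 1 lower, led by Cpt1a (1.88), Ehhadh (1.72) and Acads (1.13). Ehhadh was at 8.40, 4.86, 5.81 and 8.29 in tumours 1 to 4, against 4.94 to 5.51 in the fibroblastic line, so tumour 2 lay below that line. Of the 13 sterol transport genes 4 were higher and 4 lower, led by Nr1h3 (3.55), Osbpl5 (-2.54) and the ester hydrolase Nceh1 (-2.33). Of the 11 isoprenoid branch genes 3 were lower and 0 higher, with Pggt1b (-1.10), the methyltransferase Icmt (-0.71) and Pdss2 (-0.42). On the epithelial co-culture array, Acaa2 (2.10) and Pggt1b (-1.08) were the genes of these lists called against the epithelial line. On the fibroblastic one they were Pggt1b (-1.95), Npc2 (-1.71) and Acsl4 (1.34) against the fibroblastic line.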

How the data were processed

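Total RNA, isolated with Trizol per the labels' protocols, was measured on single-channel Affymetrix rat arrays. The deposited log2 values were made by the authors with RMA, per the submitters' processing notes; no source used here gives its version or says which arrays were normalized together. That the values are log2 was read from their range (2.94 to 14.69). Of 31099 probe sets, 57 controls were left out and 20826 named a single gene; symbols were updated through RefSeq identifiers.

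Differences were fitted over all 14217 genes with limma 3.58.1 in R 4.3.3, with p-values adjusted by Benjamini and Hochberg. Line and co-culture comparisons came from a fit of 9 arrays, and tumour comparisons from a fit of 11 arrays (tumours and lines alone). Tests were two-sided. The fit was tested on simulated data. Members, lists and alternatives were chosen with earlier results of these data known. Named were called members, up to 15 per comparison by size, and 10 genes named whatever their value; of other lists, the 3 called genes with the largest difference. Tables and figures used Python 3.11.15 with pandas 2.3.3 and matplotlib 3.10.9.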

Additional observations from a re-analysis of the deposited data

Results flagged for a closer look

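Fads1 in the fibroblastic line had 1 array far from the others: array 3 stood at 9.77, against 8.95, 8.80 and 8.83 on arrays 1, 2 and 4, a gap of 0.848 of the whole range. It was the only such case among 64 groups of 4 arrays tested, of which chance flags about 1 in 20. The tested difference between the co-culture differences was -1.93 for Mvk, -1.34 for Srebf1 and -1.78 for Fasn. There was 1 co-culture array per line, both with markers of both lines and 0.12, 0.39 and 0.12 apart for these genes. The term thus largely restates the differences between the lines alone (2.05, 1.74 and 1.89). It cannot show whether the lines responded differently.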

How the results depend on the processing

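The alternatives were a fit of all 13 arrays, quantile normalization, median centring, the dimmest 25% of genes left out, probe sets averaged, robust moderation with a trend, a fold limit of 2, an adjusted p limit of 0.01, only the groups compared, arrays left out, and the replicate number as a block. Over 1818 values of named genes, 1648 kept direction and call, 134 lost a call, 11 gained one and 25, all without a call, changed sign. The count of members called between the lines, 22, stayed at 17 to 25. For tumours against the epithelial line it was 23, and 13 with tumour 2 as the only tumour. Against the fibroblastic line it was 18, then 8 at 0.01, 10 without tumours 1 and 4, and 7 with tumour 2 only. For the epithelial co-culture it was 4, then 1 at 0.01, 8 with only the groups compared and 10 without fibroblastic arrays 2 and 4. For the fibroblastic co-culture it was 1, then 2 with only the groups compared and 3 without those arrays. For the difference in response it was 3, then 5 with all 13 arrays, 1 at 0.01 and 6 without those arrays. With 1 array left out the counts were 20 to 23 between the lines, 20 to 25 and 13 to 19 for the tumours, 3 to 5 and 1 to 2 in co-culture, and 2 to 3 for the difference. The cause of each change was not tested.

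Sign changes were these. Between the lines Insig2 was 0.04 without epithelial array 1 or 3 and 0.088 without fibroblastic array 1 (-0.22 to 0.088 with 1 array left out). In tumours against the epithelial line Acaca was 0.15 with probe sets averaged, and Insig2 -0.093 without tumours 1 and 4 and -0.075 with tumour 2 only. Against the fibroblastic line Fasn was 0.24 after quantile normalization, 0.14 after centring, 0.13 without tumour 2 and 0.0029 without fibroblastic array 3 (1 array left out, -0.20 to 0.13). Acaca was 0.15 after quantile normalization, 0.41 with probe sets averaged and 0.0998 without tumour 2 (1 array left out, -0.40 to 0.0998). Insig2 was -0.14 without tumours 1 and 4, -0.12 with tumour 2 only and -0.0094 without tumour 1 (1 array left out, -0.0094 to 0.47). Insig1 in the epithelial co-culture was 0.031 after quantile normalization, 0.13 without epithelial array 2 and 0.11 without array 3 (1 array left out, -0.31 to 0.13). In the fibroblastic co-culture Fasn was -0.039 after centring, -0.45 with probe sets averaged, -0.047 without fibroblastic arrays 2 and 4, -0.017 without array 1 and -0.032 without array 4 (1 array left out, -0.032 to 0.049), and Scd was -0.26 without arrays 2 and 4.

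Same-numbered arrays did not deviate together (correlations of -0.148 to 0.143 over 10 pairs), and other pairs ranged from -0.194 to 0.196. With so few arrays per group, this cannot say whether any shared a culture or a day. With the replicate block, 22, 22 and 18 members were called between the lines and for the tumours against each line, and Srebf2 against the epithelial line was not called (-0.64, adjusted p = 0.0527). For the co-culture arrays no block could be fitted, since their labels carry no number.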
